A study of Mus musculus with 12 samples.

Results

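The genes described here are 4 keratins of simple epithelia (Krt7, Krt8, Krt18 and Krt19) and 4 genes known from the coelomic epithelium and other mesothelia (Upk3b, Upk1b, Msln and Ezr). These 8 were taken by symbol from a fixed list out of 32285 counted genes, and the rule itself uses no measured value. Single-cell RNA sequencing was performed on dissected mouse gonads at E12 (23 ± 3 tail somites) on 6 groups with 2 libraries each, 12 in all. Embryos of either sex were WT, homozygous for a Wt1 allele that cannot make the -KTS variant (-KTS KO), or homozygous for the Frasier-type allele that cannot make the +KTS variant (+KTS KO). All groups were kept on the mixed background B6CBAF1/JRj, and each mutant group kept the other splice variant of Wt1. The study reports more -KTS transcript in +KTS KO gonads than in controls, with similar total WT1 protein in XY. Loss of +KTS and gain of -KTS therefore cannot be told apart in the +KTS KO groups here. By the study's methods, gonads were dissected from the mesonephros and -KTS KO libraries pooled the gonads of several embryos, whereas no pooling is given for the others.

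Keratins are the intermediate filament proteins of epithelia, and a filament is built from a type II partner (Krt7, Krt8) and a type I partner (Krt18, Krt19). Uroplakins are membrane proteins of the urothelium that mesothelia also make, and ezrin, the product of Ezr, ties actin to the plasma membrane in microvilli. The gonad is covered by the coelomic epithelium, a mesothelium that gives rise to supporting and interstitial cells during the stages before and around the time studied here.

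All 8 genes were protein-coding in GENCODE M21 on GRCm38. Krt7 (chr15:101411043-101430313, plus strand), Krt8 (chr15:101996698-102004482, minus strand) and Krt18 (chr15:102028180-102032027, plus strand) lie in the type II keratin cluster of chromosome 15, where Krt18 is the type I exception. Krt19 lies at chr11:100140810-100148665 on the minus strand. Upk3b lies at chr5:136038496-136046487 (plus), Upk1b at chr16:38773184-38800328 (minus), Msln at chr17:25748613-25754378 (minus) and Ezr at chr17:6738041-6782784 (minus). Krt7, Krt8 and Ezr each overlap 1 counted gene on the opposite strand (Gm671, Gm36026 and Sytl3). Whether the counting used strand is not given in the sources used here, and the share of reads from those genes was not tested.

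Promoter sequences from RefSeq (GRCm38.p6) were held for 5 of the 8 genes. The 250 bases before the start are shown for the 3 genes that differed from WT in -KTS KO gonads of both sexes, because -KTS is the WT1 form that binds DNA as a transcription factor. Capitals mark GGGCGG or its reverse complement, the core of a GC box.
Upk3b (chr5:136038246-136038495, plus strand): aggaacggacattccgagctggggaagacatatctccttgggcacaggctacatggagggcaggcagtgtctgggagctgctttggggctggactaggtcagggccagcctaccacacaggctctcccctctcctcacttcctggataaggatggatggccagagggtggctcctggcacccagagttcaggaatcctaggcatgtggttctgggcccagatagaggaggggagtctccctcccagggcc
Ezr (chr17:6782781-6783030, minus strand): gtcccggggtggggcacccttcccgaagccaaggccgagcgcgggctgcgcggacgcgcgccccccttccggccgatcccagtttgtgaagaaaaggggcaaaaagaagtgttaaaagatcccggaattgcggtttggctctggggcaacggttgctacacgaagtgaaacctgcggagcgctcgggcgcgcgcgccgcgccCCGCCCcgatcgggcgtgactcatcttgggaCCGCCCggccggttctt
Krt7 (chr15:101412153-101412402, plus strand): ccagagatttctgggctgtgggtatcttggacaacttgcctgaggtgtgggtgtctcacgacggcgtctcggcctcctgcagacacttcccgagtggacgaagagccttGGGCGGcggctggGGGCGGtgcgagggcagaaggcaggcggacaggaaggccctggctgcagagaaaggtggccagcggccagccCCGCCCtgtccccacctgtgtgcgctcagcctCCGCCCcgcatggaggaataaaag

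The 3 windows were 60.8%, 67.2% and 66.0% G and C, in that order. That of Krt7 lies within the GENCODE gene span, upstream of the RefSeq start. The WT1 and EGR sites GCGTGGGAG and GCGGGGGCG were searched on both strands and stand in none of the 5 windows. They stand in only 0.405% and 2.57% of 32851 windows of the same length. Sites this rare are seldom met in 5 windows, so their absence says nothing about WT1 binding. GGGCGG was present in 32.7% of all windows, in the Ezr window at 2 places and in the Krt7 window at 4, and it was absent from that of Upk3b.

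Over the series, 77545 of 103730 barcodes were kept as single cells, from 4697 to 8704 a library, with a median depth between 10637.5 and 19162 UMIs per cell. Xist ran from 536 to 751 CPM (a gene's UMIs scaled to the same total UMIs in every library) in XX and at most 0.168 CPM in XY libraries, and Ddx3y was at 0 in all XX libraries, so the sexes matched the labels. Total Wt1 ran from 159 to 309 CPM in gonadal somatic cells, and counts per gene do not separate its splice variants. Of the clusters, the pre-granulosa-named cluster 10 had 50 or more cells from XY +KTS KO library 1 only, and the 72 mesonephric epithelium cells came from +KTS KO libraries only.

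Gonadal somatic cells (66652 cells left after germ, endothelial, erythroid, immune and mesonephric epithelial clusters were set aside) were summed per library, which gave 56405350 to 98340185 UMIs each. Values below are CPM in these sums, and changes are log2 fold changes from edgeR's quasi-likelihood test with an approximate standard error and a Benjamini-Hochberg adjusted p over all genes tested. A gene was called at an adjusted p under 0.05. A sum cannot tell fewer expressing cells from less RNA per cell. Of the 8 genes, 7 passed the filter on low counts, and Msln did not.

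The members called in -KTS KO gonads of both sexes were Ezr and Upk3b, which were higher, and Krt7, which was lower. Of the 7 genes tested, 3 were called in XX -KTS KO against XX WT, where 16.5% of all 17721 genes were called. In XY -KTS KO against XY WT 4 of 7 were called, beside 23.5% of all genes. The median log2 change of the 7 genes was 0.04 in XX and 0.60 in XY, whereas that of all genes tested was 0.01 and 0.02.

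Ezr stood at 36.6 and 38.9 CPM in XX WT, 43.1 and 48.3 in XY WT, 93.5 and 132 in the XX -KTS KO libraries and 107 and 141 in the XY ones. The +KTS KO libraries read 43.8 and 41.9 in XX and 45.7 and 36.5 in XY. Every -KTS KO library lay above every library of the other groups, and WT and +KTS KO libraries overlapped. Ezr rose 3.10-fold in XX (log2 change 1.63, SE 0.18, adjusted p = 0.000502) and 2.65-fold in XY (1.40, SE 0.17, adjusted p = 0.000535). It held this call in all 10 alternative fits of each sex.

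Upk3b is the other gene that rose in both sexes without -KTS. Its levels were 61.4 and 55.0 CPM in XX WT, 60.6 and 42.3 in XY WT, 96.8 and 142 in the XX -KTS KO libraries and 115 and 133 in the XY ones. In +KTS KO it read 38.3 and 35.6 in XX and 41.9 and 30.1 in XY, so that the +KTS KO libraries lay below the lowest WT library and the -KTS KO libraries above the highest. The rise was 2.13-fold in XX (1.09, SE 0.24, adjusted p = 0.0132) and 2.33-fold in XY (1.22, SE 0.24, adjusted p = 0.00548). Without the second XX -KTS KO library the XX change was 0.80 and no longer passed (adjusted p = 0.104), and it also missed the threshold when either XX WT library was left out (adjusted p = 0.0591 and 0.0866).

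Krt7, the type II keratin of ducts and mesothelia, went the other way. It stood at 41.7 and 33.3 CPM in XX WT, 42.1 and 28.6 in XY WT, 21.2 and 20.9 in the XX -KTS KO libraries and 17.6 and 17.4 in the XY ones. The 4 +KTS KO libraries were the highest, at 56.7, 53.5, 54.5 and 50.4 CPM, and the 3 genotypes did not overlap. Krt7 fell by 0.78 on the log2 scale in XX (SE 0.21, adjusted p = 0.0311) and by 1.07 in XY (SE 0.21, adjusted p = 0.00561). The XX call was lost when XX WT library 1 or either XX -KTS KO library was left out (adjusted p = 0.212, 0.129 and 0.147) and when all kept cells were summed (adjusted p = 0.113). In +KTS KO its change did not pass the test (0.59, adjusted p = 0.149 in XX and 0.47, adjusted p = 0.158 in XY), and without XY WT library 1 the XY change passed (0.85, adjusted p = 0.0373).

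**Figure D1:**
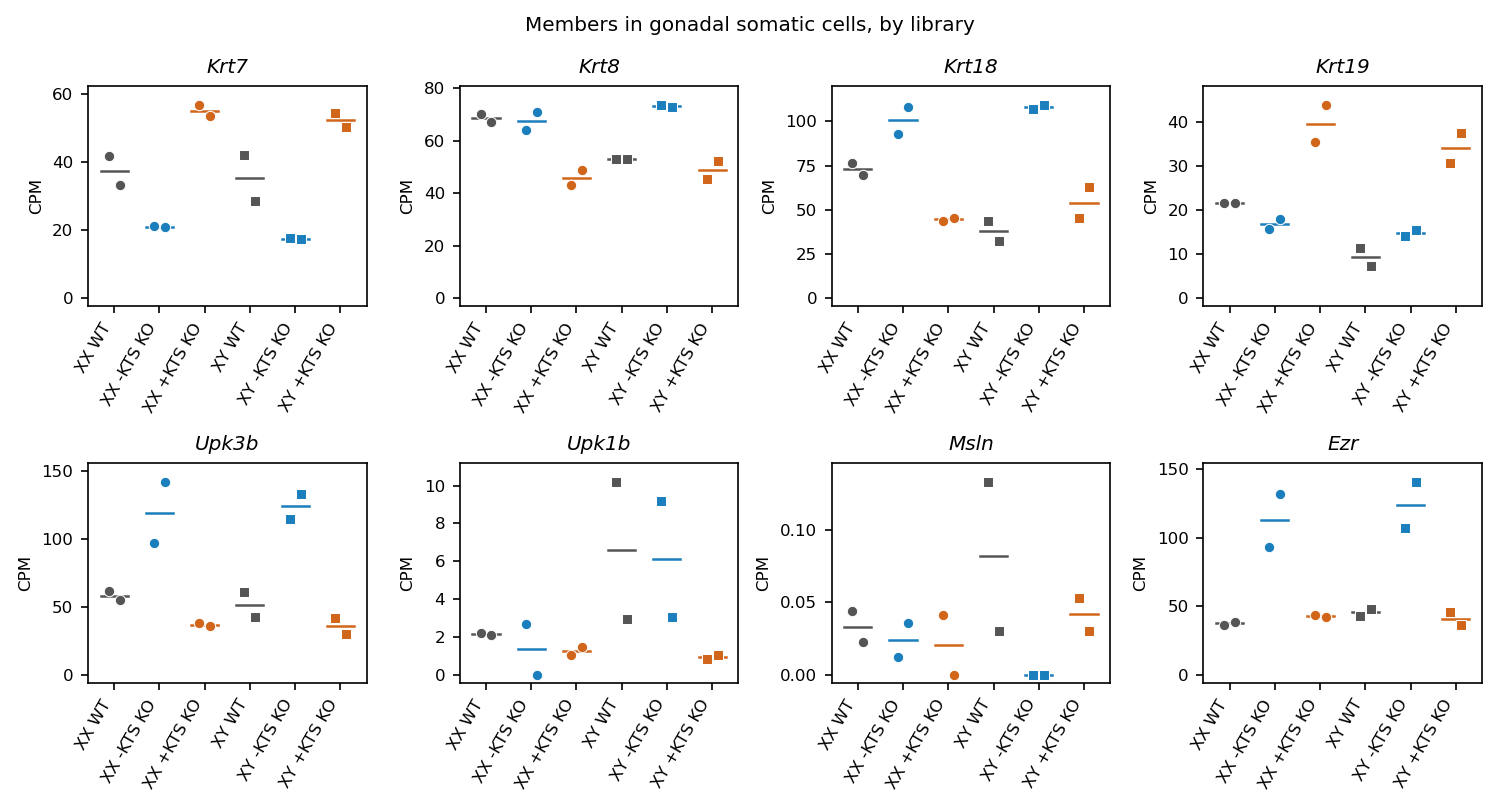
Each panel plots 1 gene in the summed gonadal somatic cells, with its level in CPM on a linear axis and the 6 groups along the bottom. Points are libraries (circles XX, squares XY) and bars are the means of 2; all -KTS KO points of Ezr lie at 93.5 CPM or more and no other library exceeds 48.3.

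Krt8 and Krt18, partners in the first keratin filaments of simple epithelia, changed less evenly. Krt18 stood at 76.3 and 69.8 CPM in XX WT but 43.9 and 32.1 in XY WT, and at 93.0 and 108 in the XX -KTS KO libraries and 107 and 109 in the XY ones. The XX and XY -KTS KO libraries thus lay at like levels, whereas the XX and XY WT libraries did not overlap. Krt18 rose 2.74-fold in XY (1.45, SE 0.23, adjusted p = 0.00184) and was not called in XX (0.52, SE 0.22, adjusted p = 0.152). The difference between the sexes in this effect was 0.94 (SE 0.32) and did not pass (adjusted p = 0.149). In +KTS KO Krt18 read 43.6 and 45.5 CPM in XX and 45.2 and 62.8 in XY, with changes of -0.68 (adjusted p = 0.129) and 0.42 (adjusted p = 0.228).

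Krt8 was called in no comparison. Its libraries ran from 64.1 to 73.5 CPM in -KTS KO and in XX WT from 67.0 to 70.0, while those of XY WT read 53.2 and 52.9 and those of +KTS KO 43.0, 48.9, 45.4 and 52.3. The XY -KTS KO libraries lay above the XY WT ones (0.43, SE 0.14, adjusted p = 0.0506), and the XX +KTS KO libraries lay below the XX WT ones (-0.54, SE 0.14, adjusted p = 0.0558). Both values sit at the edge of the threshold: with barcodes of high doublet scores kept they passed (adjusted p = 0.0296 and 0.0491).

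Krt19, a type I keratin without a type II partner of its own, was the one member called in +KTS KO gonads. It stood at 21.6 and 21.7 CPM in XX WT and 11.4 and 7.34 in XY WT, and at 35.5 and 43.9 in the XX +KTS KO libraries and 30.7 and 37.6 in the XY ones. The 4 +KTS KO libraries lay above all others. In XY +KTS KO it was the only one called of 7, beside 12.7% of all genes, with a 3.41-fold rise (1.77, SE 0.24, adjusted p = 0.00222). Without XY +KTS KO library 1, which held most of cluster 10, the change was 2.00 (adjusted p = 0.00230). In XX +KTS KO no member was called, beside 4.98% of all genes, and Krt19 missed the threshold (0.91, SE 0.23, adjusted p = 0.0556). At an unadjusted p under 0.05 Krt7, Krt8, Krt18, Krt19 and Upk3b passed there, and DESeq2 called Krt8 and Krt19.

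In -KTS KO, Krt19 read 15.7 and 18.1 CPM in XX and 14.1 and 15.5 in XY. These libraries lay between the XX and the XY WT libraries, and neither comparison was called (-0.30, adjusted p = 0.426 in XX and 0.60, adjusted p = 0.0929 in XY). Without XY WT library 1 the XY change passed (1.03, adjusted p = 0.0147).

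Between the WT sexes, 2 of 7 members were called, beside 13.5% of all genes. Krt18 was lower in XY (-0.86, SE 0.23, adjusted p = 0.0331) and Krt19 was lower in XY (-1.12, SE 0.24, adjusted p = 0.0135). Both calls were lost without XX WT library 1, XX WT library 2 or XY WT library 2 (adjusted p from 0.0542 to 0.176). The test of the difference between XX and XY effects called none of 7 members for -KTS KO (3.04% of all genes) and none for +KTS KO (3.97%). At an unadjusted p under 0.05 Krt18 and Krt19 passed in both, and DESeq2 called Krt18 for +KTS KO (1.06, adjusted p = 0.0344). Both tests use the same XX and XY WT libraries, so passing in both is not independent evidence.

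Upk1b, the tetraspanin partner of the larger uroplakins, varied widely between libraries of 1 group. Its levels were 2.19 and 2.09 CPM in XX WT, 10.2 and 2.94 in XY WT, 2.67 and 0.0177 in the XX -KTS KO libraries, 9.21 and 3.05 in the XY -KTS KO ones, 1.05 and 1.45 in the XX +KTS KO libraries and 0.824 and 1.05 in the XY ones. The second XX -KTS KO library held 1 Upk1b UMI, whereas the other 11 held 62 to 766. No Upk1b change was called, and its standard error was at least 1.07 in each comparison with WT. The difference of XY +KTS KO from XY WT was -2.92 (SE 1.17, adjusted p = 0.125), with all libraries of the first group below those of the second. It was -1.66 without XY WT library 1 and -3.58 without library 2, and it passed without the filter on low counts (adjusted p = 0.0332).

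Msln, the mesothelial surface protein mesothelin, was all but absent from the gonadal soma. It gave 31 UMIs over all somatic cells, 0 to 10 a library, at most 0.133 CPM. In the 3 libraries at 0, a count of 0 allows up to 3 UMIs, and 3 UMIs correspond to between 0.0305 and 0.0532 CPM across the 12 libraries. Of the Msln UMIs in kept cells, 26.1% came from the 72 cells named mesonephric epithelium, at 16.5 CPM, and 37.5% from germ cells, at 0.140 CPM. These limits cover counting error only.

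Of 5 markers of mesonephric epithelium, Epcam and Pax2 were higher in every -KTS KO library than in any other, and the other 3 were not. Summed over Pax2, Epcam, Cdh1, Gata3 and Lhx1, the markers stood at 22.8 to 33.0 CPM in the -KTS KO somatic sums, 12.5 to 18.5 in WT and 9.07 to 10.5 in +KTS KO, without overlap. None of the 5 was at 0 in any library, and the 4 other than Epcam were each at 2.47 CPM or less, so that the sum is nearly all Epcam. Pax2 read 1.04 to 2.47 CPM in -KTS KO, 0.425 to 1.01 in WT and 0.590 to 0.943 in +KTS KO. Cdh1, the epithelial cadherin, was highest in +KTS KO (0.287 to 1.17 CPM, as against 0.0734 to 0.259 in WT and 0.0120 to 0.124 in -KTS KO). Lhx1 was lower in XY -KTS KO (0.139 and 0.0123 CPM) than in XY WT (0.332 and 0.442). In XX Lhx1 read 0.0361 and 0.160 CPM in -KTS KO (3 and 9 UMIs) and 0.0147 and 0.0337 in WT (1 and 3 UMIs). Counts this low give no order between the XX groups. Gata3 was higher in XY -KTS KO (0.985 and 0.825 CPM) than in XY WT (0.398 and 0.336), and its XX libraries overlapped. Epcam, an epithelial adhesion molecule, rose in XX -KTS KO (0.78, adjusted p = 0.0214) and XY -KTS KO (1.03, adjusted p = 0.00426). In the mesonephric epithelium cells Upk3b was at 2.87 CPM, below its level in the somatic sums, while Ezr was at 142 CPM, Krt7 at 199 and Krt18 at 958. The part of such cells in the Ezr, Krt18 and Krt7 results was not tested. No cluster was named perivascular, and the summed perivascular markers ran from 32.3 to 50.8 CPM in -KTS KO, 16.5 to 39.7 in WT and 18.7 to 26.1 in +KTS KO. The summed erythroid markers ran from 90.8 to 204 CPM in the -KTS KO somatic sums, 287 to 841 in WT and 121 to 303 in +KTS KO. The part of either was not tested.

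The cells covering the gonad could not be named as a cluster, since no cluster at any of 3 resolutions met the naming rule for coelomic epithelium. Somatic cells with a UMI of at least 2 of the mesothelial genes Lrrn4, Muc16, Bnc1 and Gpm6a were therefore summed instead, and are called surface-marker cells here. There were 2930 of them, 128 to 371 a library, or 2.60% to 6.59% of somatic cells. Their median depth exceeded that of somatic cells in all 12 libraries, and after thinning to 5000 UMIs the share fell to between 0.388% and 1.52%, so these shares depend on depth and were not compared. Muc16, the mucin that binds mesothelin, gave 508 UMIs in XX WT and 0 in XX -KTS KO, at least 150-fold lower against a floor of 3 UMIs over the group, and 346 and 1 in XY. In -KTS KO the cells were therefore chosen almost without Muc16. Bnc1, another of these genes, was called higher in the XY -KTS KO somatic sums and resembled Upk3b over clusters, as given below. The choice of cells thus rests on genes that changed with genotype.

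The surface-marker cells of each genotype lay largely in different clusters. Clusters 6 and 12 (586 and 271 of the cells) were 98.5% and 94.9% -KTS KO. Clusters 5, 14 and 13 (473, 293 and 89) were mostly WT, and clusters 9, 7 and 17 (511, 369 and 167) were mostly +KTS KO. Cluster 12 was named matrix-rich mesenchyme and clusters 13 and 17 interstitial progenitor, while the others were unnamed. The surface-marker cells thus cannot be read as coelomic epithelium alone. Cluster 17 had 50 or more cells from 1 library only and was led by the immediate early genes Btg2, Egr1, Fos and Junb. Over these cells Ezr and Krt7 were called in -KTS KO of both sexes and Upk3b in neither. Of 7 members, 2 were called in XX -KTS KO (4.43% of all 12554 genes) and 2 in XY -KTS KO (8.53%). Ezr read 96.7 and 106 CPM in XX WT, 170 and 153 in XY WT, 245 and 284 in the XX -KTS KO libraries and 287 and 388 in the XY ones. It rose by 1.45 (SE 0.18, adjusted p = 0.000651) in XX and 1.04 (SE 0.18, adjusted p = 0.00339) in XY. The XY call was lost without XY WT library 2 (0.91, adjusted p = 0.0574).

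Krt7 in the surface-marker cells read 138 and 100 CPM in XX WT and 165 and 103 in XY WT, as against 55.4 and 58.0 in the XX -KTS KO libraries and 50 and 38.1 in the XY ones. The groups did not overlap, and it fell by 0.99 in XX (SE 0.25, adjusted p = 0.0398) and by 1.64 in XY (SE 0.26, adjusted p = 0.00237). The XX call was lost when any 1 of the 4 libraries was left out (adjusted p from 0.0680 to 0.339), whereas the XY call held in all 9 alternatives. In XX +KTS KO it read 250 and 236 CPM, above both XX WT libraries, without passing the test (1.08, SE 0.24, adjusted p = 0.0585), and it passed under DESeq2 (adjusted p = 0.00257).

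Upk3b in the surface-marker cells read 285 and 249 CPM in XX WT, 287 and 235 in XY WT, 276 and 334 in the XX -KTS KO libraries and 330 and 417 in the XY ones. The XX libraries overlapped, and the changes were 0.27 (SE 0.18, adjusted p = 0.50) and 0.49 (SE 0.18, adjusted p = 0.122). The difference between the somatic sums and these cells in the size of the change was not tested, since the second set lies within the first. Krt18 was not called either (0.81, SE 0.31, adjusted p = 0.134 in XY -KTS KO), but this value rests on single XY WT libraries. It was 1.49 without XY WT library 1 (adjusted p = 0.0188) and 0.34 without library 2 (adjusted p = 0.636), and without the filter on low counts it passed (0.84, adjusted p = 0.00152).

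**Figure D2:**
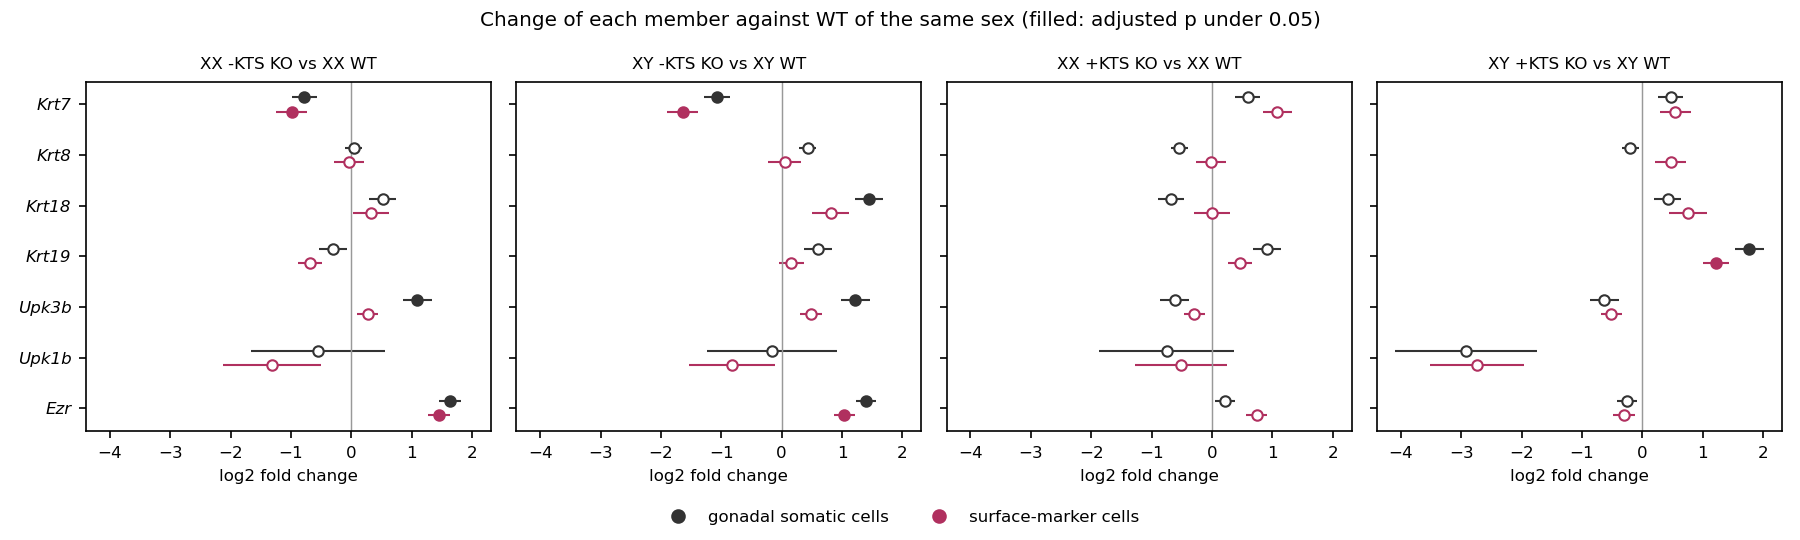
Log2 fold changes against WT of the same sex are plotted for 7 genes, with a bar of 1 SE on each side, in gonadal somatic cells (dark) and surface-marker cells (red). Filled points passed an adjusted p of 0.05; Ezr lies between 1.04 and 1.63 in all 4 -KTS KO estimates and Krt7 between -1.64 and -0.78.

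In the surface-marker cells of +KTS KO gonads, none of 7 members was called in XX (1.01% of all genes) and Krt19 alone in XY (1.26%). Krt19 stood at 77.8 and 75.5 CPM in XX WT, 44.8 and 29.4 in XY WT, 105 and 97.9 in the XX +KTS KO libraries and 93.7 and 85.1 in the XY ones. The XY rise was 1.22 (SE 0.21, adjusted p = 0.0177) and was lost without XY WT library 2 (0.90, adjusted p = 0.115). In XX none of 7 passed, while Krt7, Krt19 and Ezr had an unadjusted p under 0.05 and DESeq2 called Krt7 and Ezr (0.75, adjusted p = 0.0140). Between the WT sexes Krt19 was the 1 member called (1.51% of all genes), lower in XY (-0.97, SE 0.21, adjusted p = 0.0337). This call was lost without XX WT library 1, XX WT library 2 or XY WT library 2 (adjusted p = 0.188, 0.227 and 0.254).

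The members were also read across 35 clusters, built with the 8 genes, all other keratins and all other uroplakins left out of the variable genes. Upk3b and Ezr were highest in cluster 6 (3683 cells, 98.5% from -KTS KO), at 316 and 256 CPM. Over the 4 -KTS KO libraries Upk3b ran from 252 to 368 CPM there and Ezr from 216 to 315. This cluster held 19.6% of -KTS KO somatic cells and 55.9% of their Upk3b UMIs, 46.3% of their Ezr UMIs and 57.7% of their Krt19 UMIs. Hspa2, Gucy1a1, Myl7, Hpgd and Calb2, which is the mesothelial marker calretinin, were among its leading genes beside Upk3b and Ezr.

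Of the clusters mostly of WT cells, cluster 14 (2373 cells, 87.0% WT and 11.4% +KTS KO) had the highest Upk3b and was led by Krt19, Sp5 and Alcam. Upk3b stood there at 183 CPM, Ezr at 73.4, Krt7 at 102, Krt19 at 82.5 and Krt18 at 120 over all its cells. Over the 7 libraries with 50 or more of its cells Krt19 ran from 39.6 to 342 CPM, Krt7 from 52.8 to 261 and Upk3b from 148 to 243. Leaving aside the 72 mesonephric epithelium cells (199 CPM), Krt7 was highest in cluster 7 (3511 cells, 98.7% +KTS KO), at 134 CPM, with Upk3b at 89.8 and Krt19 at 59.5. Clusters shared more evenly between WT and +KTS KO also held Upk3b. Cluster 5 (4289 cells, 78.8% WT and 20.6% +KTS KO) stood at 98.5 CPM and gave 38.9% of the Upk3b UMIs of WT somatic cells, and cluster 9 (3168 cells, 84.0% +KTS KO and 15.3% WT) stood at 90.8 CPM. In clusters 6 and 7, which were nearly of 1 genotype, cluster and genotype cannot be told apart.

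Krt8 and Krt18 followed another order over the clusters. Leaving aside the 72 mesonephric epithelium cells (518 and 958 CPM), Krt8 was highest in cluster 3 at 152 CPM, where Krt18 stood at 175. This cluster (4677 cells, 99.7% from -KTS KO) was led by Wfdc10, Wfdc13 and Cpa1. It held 25.2% of -KTS KO somatic cells, with 62.6% of their Krt8 UMIs and 48.6% of their Krt18 UMIs but 10.1% of their Upk3b UMIs. Krt18 reached 217 CPM in cluster 26, a matrix-rich mesenchyme-named cluster of 576 cells (99.5% +KTS KO) led by Hoxc10 and Hoxa10, where 1 library gave 50 or more of the cells.

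Sertoli-named and pre-granulosa-named cells, nearly all from WT or +KTS KO, held the keratins Krt8 and Krt18 with little Upk3b. The Sertoli-named cells (3050, 99.6% from WT) had Krt8 at 95.6 CPM and Krt18 at 52.8, with Krt7 at 17.0, Krt19 at 1.06 and Upk3b at 2.81. Pre-granulosa-named cells had Krt8 at 67.2 CPM and Krt18 at 57.4, with Krt7 at 16.6, Krt19 at 10.5 and Upk3b at 1.77. These values mix cluster 4 (99.6% WT, Krt8 at 82.0, Krt19 at 7.37) with cluster 10 (99.6% +KTS KO, 40.3 and 16.3). The unnamed cluster 0 (7159 cells, 99.7% +KTS KO) also had little Upk3b, at 0.480 CPM, with Krt8 at 50.8 and Krt19 at 33.7. It held 28.2% of +KTS KO somatic cells and 26.3% of their Krt19 UMIs, as against 23.5% of those UMIs in cluster 7. The unnamed cluster 3, 99.7% from -KTS KO, had Upk3b at 42.1 CPM beside its high Krt8. In germ cells Krt8 was at 1.81 CPM and Upk3b at 1.33, but Ezr stood at 51.0 and ran from 41.9 to 62.8 over the 12 libraries. In endothelial cells Krt7, Krt8, Krt18, Krt19, Upk3b and Upk1b were each at 3.18 CPM or less and Ezr at 17.5.

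**Figure D3:**
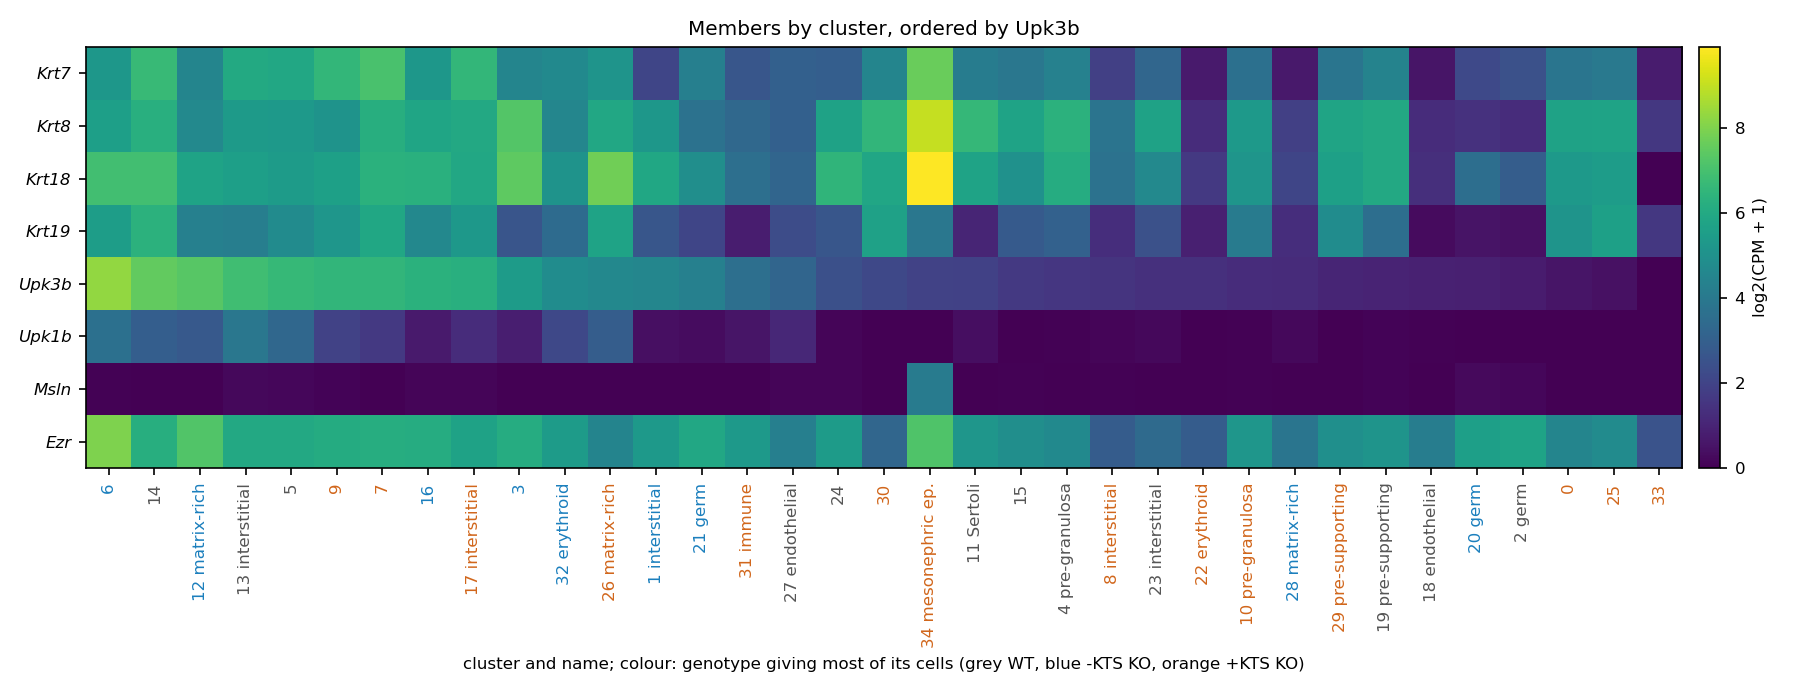
Levels of the 8 genes as log2(CPM + 1) are shown for 35 clusters ordered from the highest Upk3b (left) to the lowest, with the cluster number and name coloured by the genotype that gave most of its cells. Upk3b falls from 316 CPM in cluster 6, while Krt8 and Krt18 peak in the mesonephric epithelium cells at 518 and 958 CPM.

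Cells were thinned to 5000 UMIs each to compare shares of cells with a UMI, and cells below that depth were left out. The largest losses were in XX -KTS KO library 2 (3171 of 4123 somatic cells remained) and XY +KTS KO library 1 (4862 of 6458). In -KTS KO, Upk3b was found in 21% and 28.6% of XX and 22.0% and 25.8% of XY somatic cells, as against 10.4% to 14.4% in the 4 WT libraries. Ezr was found in 25% to 36.0% of -KTS KO and 14.3% to 18.3% of WT somatic cells. Krt7 was found in 5.64% to 6.74% of -KTS KO, 10.4% to 13.7% of WT and 13.6% to 15.1% of +KTS KO cells. For each of these 3 genes the -KTS KO libraries did not overlap the WT libraries of either sex. Krt18, called in XY only, did not overlap either (28.5% to 34.7% in -KTS KO, 13.8% to 27.8% in WT). How many of all genes would show no overlap was not counted.

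Krt19 was found in 8.08% to 12.8% of +KTS KO somatic cells, above the 2.80% to 5.94% of WT cells. In XY +KTS KO library 1, at 8.08%, 3 of 37 erythroid cells (8.11%) and 0 of 104 endothelial cells had a Krt19 UMI after thinning, so the share of that library is not read as above background. Without thinning the group means were 34.5% and 31.6% for Upk3b in XX and XY -KTS KO and 18.0% and 17.3% in WT, so the order was kept. In endothelial cells, which should lack these genes, the median share over libraries was 0 for Krt7, Krt19 and Upk3b, 0.899% for Krt8 and 1.05% for Krt18. Their median depths lay between 13163 and 27728 UMIs, against 9848.5 to 18845.5 in somatic cells. In erythroid cells the medians were 0 for Krt7 and Krt19, 0.929% for Upk3b, 1.19% for Krt8 and 1.92% for Krt18. The highest shares there were 8.11% for Krt7, Krt8, Krt19 and Upk3b and 13.5% for Krt18, each in an XY +KTS KO library. Ezr was found in 9.95% of endothelial cells (median over libraries), with a range of 4.12% to 15.7%, so they give no empty background for Ezr. That range overlapped the shares in WT and +KTS KO somatic cells, its highest value being from an XX -KTS KO library. Within each WT and +KTS KO group the somatic Ezr shares lay above the endothelial ones. In XX WT these were 14.3% to 15.7% and 10.5% to 11.1%, and in XY WT 15.8% to 18.3% and 4.12% to 11.7%. In +KTS KO they were 14.3% to 15.2% and 11.6% to 12.2% in XX, and 12.5% to 16.6% and 5.77% to 9.39% in XY. These differences were not tested.

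Co-variation over thinned somatic cells was read within each library as Pearson's r of log2(UMI + 1), between 3171 and 7359 cells, for 21 pairs of 7 members. Values are given as a description, since sparse counts hold r down and cells of 1 library share their depth and handling. The pairs with the highest median r were Upk3b with Ezr (r from 0.21 to 0.46, median 0.32) and Krt7 with Upk3b (0.18 to 0.45, median 0.32). The first was highest in the 4 -KTS KO libraries (0.42 to 0.46) and the second was lowest there (0.18 to 0.21). In the same libraries the shares of cells with Ezr and Upk3b were higher and that with Krt7 lower than in WT, as given above. How far r follows these shares was not tested. Krt8 with Krt18 ran from 0.08 to 0.29 and was highest in -KTS KO, at 0.23 to 0.29. Krt8 with Upk3b ran from -0.07 to 0.06. Upk3b was found in 53.0% to 60.2% of Krt7-positive and 18.7% to 26.5% of Krt7-negative thinned cells in -KTS KO, in 33.4% to 50.1% and 7.73% to 9.69% in WT, and in 32.2% to 44.2% and 3.54% to 5.06% in +KTS KO. In Krt7-positive cells the WT and +KTS KO libraries thus overlapped. Among Krt19-positive cells Upk3b was found in 46.5% to 58.3% in WT, 64.8% to 73.5% in -KTS KO and 17.3% to 36.6% in +KTS KO. That share exceeded the one in Krt7-positive cells in every WT and -KTS KO library and lay below it in every +KTS KO library. Pairs thus rank differently by r and by such shares.

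**Figure D4:**
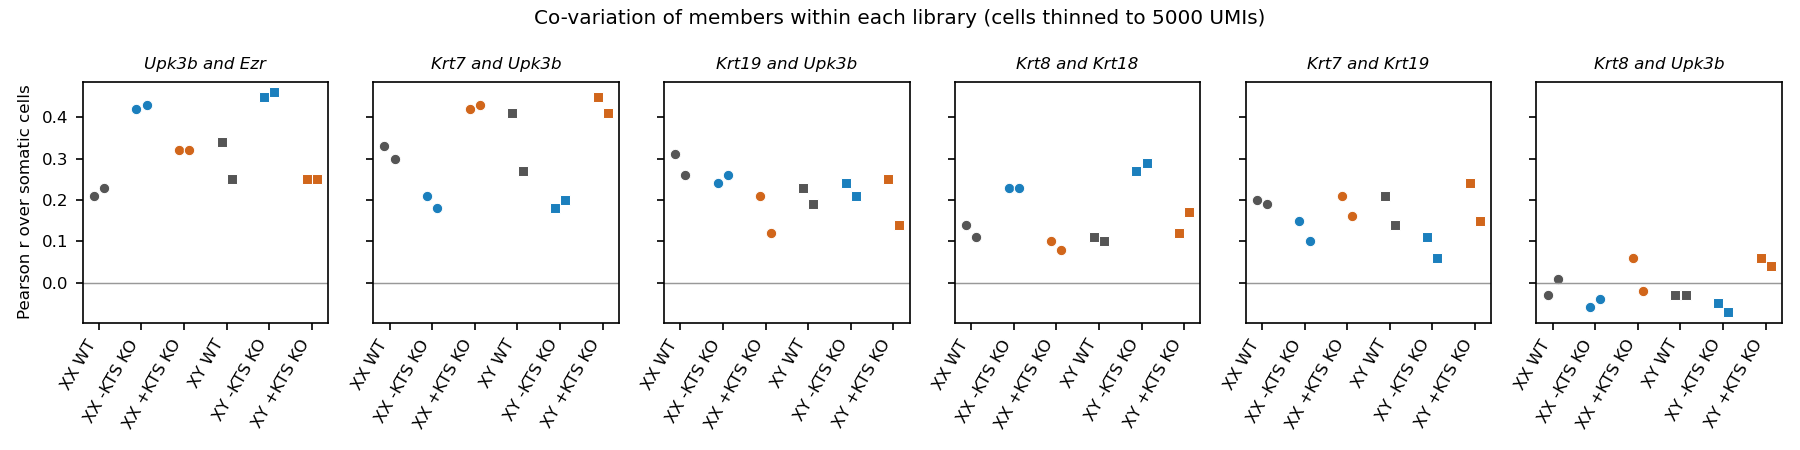
Pearson's r between the log2(UMI + 1) values of a pair of genes over thinned somatic cells is plotted for each of 12 libraries (circles XX, squares XY), for 6 of the 21 pairs. The r of Upk3b with Ezr is at least 0.42 in every -KTS KO library and at most 0.34 in the others, and that of Krt7 with Upk3b at most 0.21 in -KTS KO and at least 0.27 elsewhere.

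Across the 35 clusters, the 5 genes whose log2(CPM + 1) most resembled Upk3b among 12082 genes were Tm4sf5 (r = 0.92), Bnc1 (0.90), Cldn15 (0.89), Tmem151a (0.89) and Myl7 (0.88). Upk1b ranked 10th (0.85), Ezr 56th (0.68) and Krt7 74th (0.65). The 5 most like Krt19 were Krt14 (0.84), Fcor (0.83), Stk26 (0.80), Asphd2 (0.78) and Sv2a (0.78), and Krt7 ranked 8th (0.78). Clusters share libraries, so these values describe the pattern and carry no test.

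Other genes of the same structures were counted from lists drawn up by function. Of these, Krt79, Krt9, Upk3bl, Cldn4, Cd44, Evpl, and Dsc2 in XY lay under 10 CPM in both groups compared and were named after their values were seen. Muc16, one of the genes that chose the surface-marker cells, also lay under 10 CPM in both groups compared. Of 49 other keratins 18 could be tested in somatic cells, and -KTS KO gonads had 3 called in XX and 7 in XY, all lower. In +KTS KO 4 were called in each sex, all higher. The median log2 change of the 18 was -0.41 and -1.39 in -KTS KO and 0.75 and 0.45 in +KTS KO, XX before XY. The share called in XX -KTS KO was near the 16.5% of all genes called there and is no result about these keratins, while 23.5% of all genes were called in XY -KTS KO. For +KTS KO these shares were 4.98% in XX and 12.7% in XY. The epidermal-type keratin Krt79 fell by 4.04 in XX -KTS KO (SE 0.49, adjusted p = 0.000857) and by 5.21 in XY -KTS KO (SE 0.48, adjusted p = 0.000112), from 2.57 and 7.74 CPM in WT. Krt9 rose by 3.92 in XX +KTS KO (adjusted p = 0.00275) and 2.81 in XY +KTS KO (adjusted p = 0.00503), from 0.196 and 0.219 CPM. Krt14, the basal-layer keratin that resembled Krt19 over clusters, rose in XX +KTS KO from 3.80 to 17.1 CPM (2.20, SE 0.40, adjusted p = 0.0144). Of the other uroplakins 2 of 4 were tested, and Upk3bl rose in XY -KTS KO (4.83, SE 0.90, adjusted p = 0.00449) from 0.0438 to 1.29 CPM.

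Of 7 genes of ezrin-related proteins and apical scaffolds, 1 was higher and 3 lower in XX -KTS KO (16.5% of all genes called) and 1 higher and 2 lower in XY -KTS KO (23.5%). Their median log2 changes were -0.32 and -0.18. In +KTS KO 1 was higher and 1 lower in XX (4.98% of all genes) and 2 higher and 1 lower in XY (12.7%), with medians of -0.09 and 0.19. Slc9a3r1, which encodes the ezrin-binding scaffold EBP50, rose from 34.2 to 62.7 CPM in XX -KTS KO (0.93, SE 0.17, adjusted p = 0.00580) and from 23.3 to 64.9 in XY (1.44, SE 0.17, adjusted p = 0.000417). Its paralogue Slc9a3r2 changed by -1.03 (SE 0.21, adjusted p = 0.0101) and -1.43 (SE 0.21, adjusted p = 0.00144), and rose in XX +KTS KO by 1.05 (SE 0.21, adjusted p = 0.0227). Podxl, a sialomucin anchored through these scaffolds, fell from 123 to 35.1 CPM in XX -KTS KO (-1.76, SE 0.28, adjusted p = 0.00314).

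Of 8 genes of mesothelium and gonad surface, 2 were higher and 1 lower in XX -KTS KO and 5 higher and 1 lower in XY -KTS KO, Muc16 being the lower one in both. All genes called were 16.5% and 23.5% there, and the median log2 change of the 8 was 0.43 and 0.76. Nkain4 rose by 1.63 (SE 0.41, adjusted p = 0.0234) and 2.43 (SE 0.42, adjusted p = 0.00292), and Aldh1a2, a retinoic acid synthesis enzyme, by 0.74 in each sex (SE 0.13, adjusted p = 0.00434 and 0.00276). Bnc1 rose in XY from 3.81 to 11.0 CPM (1.49, SE 0.37, adjusted p = 0.0168). In +KTS KO none of these 8 was called in XX (4.98% of all genes) and 2 were higher in XY (12.7%).

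Desmosome and plakin genes, the anchors of keratin filaments, were called at shares near those of all genes in -KTS KO (2 of 10 beside 16.5% in XX and 3 of 10 beside 23.5% in XY), which is no result about the list. Dsc2 changed by -2.81 (SE 0.36, adjusted p = 0.00106) and -1.71 (SE 0.35, adjusted p = 0.00687). In XX +KTS KO none was called (4.98% of all genes), and in XY +KTS KO 2 were higher (12.7%). Of 10 genes of simple epithelium adhesion, -KTS KO gonads had 3 called in XX and 5 in XY, beside the same 16.5% and 23.5% of all genes, with median log2 changes of -0.05 and -0.85. Cldn4 and Epcam rose in both sexes, and the others called were lower. In +KTS KO 1 was lower in XX (4.98% of all genes called) and 3 were lower in XY (12.7%), none was higher, and the medians were -0.65 and -0.79. Of 4 other intermediate filament genes, 1 was lower in XX -KTS KO, 2 lower in XY -KTS KO, 1 higher in XX +KTS KO, 1 lower in XY +KTS KO and 1 higher in XY WT than in XX WT. All genes called were 16.5%, 23.5%, 4.98%, 12.7% and 13.5%, in that order. Lmna fell in -KTS KO of both sexes (by 0.80, adjusted p = 0.00506, and by 1.09, adjusted p = 0.000709) and Vim fell in XY -KTS KO (by 0.80, adjusted p = 0.0157) and XY +KTS KO (by 1.22, adjusted p = 0.00472). Nes, the gene of nestin, rose in XX +KTS KO from 9.70 to 23.9 CPM (1.33, SE 0.27, adjusted p = 0.0230), and Vim was higher in XY WT than in XX WT (0.68, SE 0.19, adjusted p = 0.0465).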

How the data were processed

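Gonads of 12 libraries were profiled by droplet 3′ single-cell RNA sequencing. The authors deposited UMI counts per gene and barcode, made with Cell Ranger 6.0 on mm10 per the labels, without normalization or merging of libraries. The kit version differs between the labels and the study's methods. Depth was 108111924 to 147968666 UMIs a library, and 6 to 46 barcodes were shared by any 2 libraries.

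Barcodes were kept from 1000 genes upward and up to 10% mitochondrial UMIs (83513), and the highest Scrublet scores (scanpy 1.11.5; 0.8% per 1000 barcodes, 5968 in all) were removed, since Scrublet's own threshold called 2637. Cells were normalized with sctransform 0.4.2 (3000 variable genes without the 8 genes, other keratins and uroplakins) and clustered in Seurat 5.3.0 (50 components, 20 neighbours, resolution 0.8). A cluster could be named where at least 3 markers of a type were raised and each was found in at least 20% of its cells, and took the name where its mean log2 marker score was 1.2 or more, or 0.5 or more with a marker among its 10 leading genes. Both score limits were chosen once the clusters had been seen. Counts summed per library were tested with edgeR 4.0.16 (quasi-likelihood, TMM, filterByExpr, 6 groups in 1 fit), and p-values were adjusted by Benjamini-Hochberg across every gene tested. X- and Y-linked genes were left out between the WT sexes. The fit was tested on simulated data. DESeq2 1.42.0, RLE factors, no filter, all kept cells, doublets kept, leaving out each library and a replicate block were alternatives. R 4.3.3, Python 3.11.15, scipy 1.17.1 and numpy 2.4.6 ran the rest.

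The comparison within coelomic epithelium-like clusters could not be made, and the surface-marker cells, chosen after the data were seen, took its place. All members are named, with up to 4 called genes of each list above 10 CPM in 1 group, and the exceptions are named in the text. The 2 libraries of a group were independent replicates by the series' design text. The -KTS KO and +KTS KO comparisons share their WT libraries. The members and lists were chosen with earlier results of these data known. Of the mesonephric epithelium markers 5 are reported here.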

Additional observations from a re-analysis of the deposited data

Results flagged for a closer look

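Over gonadal somatic cells the test of the difference between the XX and XY effects of a genotype passed in 4 results among the members and the listed genes. These were 1 for -KTS KO and 3 for +KTS KO, where 3.04% and 3.97% of all genes passed, so the count is no result about the lists. For Cd44, whose product binds ezrin-related proteins, the XY effect exceeded the XX effect by 2.93 (log2) for -KTS KO and by 4.30 for +KTS KO (edgeR adjusted p = 0.0158 and 0.00188), from means of 1.36 CPM in XX WT and 0.164 in XY WT. For +KTS KO the difference was 1.88 for the plakin gene Evpl (adjusted p = 0.0382) and 2.02 for the WNT pathway activator Rspo1 (adjusted p = 0.0324).

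For Krt19 in -KTS KO and Krt18 in +KTS KO, every XX library lay below and every XY library above the WT libraries of its sex. For Krt18 the nearest XY libraries were close, at 45.2 CPM in +KTS KO and 43.9 in WT. How many of all genes would separate in this way was not counted, so the pattern is no result about the members. Krt19 had a difference of effects of 0.91 (SE 0.33, edgeR adjusted p = 0.181) and Krt18 one of 1.10 (SE 0.32, adjusted p = 0.0883), so the test passed for neither. Over the alternatives the adjusted p ran from 0.0601 to 0.371 for Krt19 and from 0.0250 to 0.262 for Krt18.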

How the results depend on the processing

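No called member change reversed its direction under any alternative. Of the log2 changes of single members, 395 kept their side of the threshold, 23 lost the call and 28 gained one, and of the counts of members called 89 stayed within 1.5 times and 34 did not. In gonadal somatic cells the count for XX +KTS KO (none) was 2 with DESeq2, 1 without the filter on low counts and 2 with doublets kept. That for XY +KTS KO (1) was 2 with DESeq2 and 2 without the filter, that between the WT sexes (2) was 1 over all kept cells, and that for the sex difference of the +KTS KO effect (none) was 1 with DESeq2 and 1 without the filter. In surface-marker cells the counts without the filter were 4 for XX -KTS KO, 4 for XY -KTS KO, 2 for XX +KTS KO, 3 for XY +KTS KO and 3 between the WT sexes. DESeq2 gave 2 for XX +KTS KO and 2 between the WT sexes there, and choosing the cells without Muc16 gave 1 for XX +KTS KO. Leaving out 1 library gave 1 to 3 for XX -KTS KO, 1 to 2 for XY +KTS KO, 0 to 2 between the WT sexes and 0 to 1 for the +KTS KO sex difference in somatic cells. In surface-marker cells it gave 1 to 1 for XX -KTS KO, 1 to 3 for XY -KTS KO, 0 to 1 for XY +KTS KO and 0 to 1 between the WT sexes. Where a group was left with 1 library, that library was assumed to vary like the other groups. The cause of these shifts was not tested. Libraries of the same number deviated together by r from -0.20 to 0.17 over 15 pairs, so the numbers do not pair them, and a replicate block moved 1 count, that for XX +KTS KO in surface-marker cells, to 1. Resolutions 0.4 and 1.2 gave no cluster named coelomic epithelium, so those alternatives were not run. Msln was too rare to test, and 2 libraries a group limit all intervals.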

Other observations

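Upk1b was all but missing from 1 library. The second XX -KTS KO library held 1 Upk1b UMI among 113685146 UMIs of all its barcodes, and 1 among its somatic cells, while the other XX -KTS KO library held 239 and the other 11 libraries 71 to 935. In that library Upk3b stood at 142 CPM and Ezr at 132, the higher of the group in both. No other gene with at least 50 somatic UMIs in each of the other 11 libraries had at most 1 UMI there, and of the remaining libraries only XY +KTS KO library 1 had such a gene (Gm6213). The reason was not tested. In cluster 6, where Upk3b and Ezr were highest, Upk1b ran from 0.0807 to 28.2 CPM over the 4 -KTS KO libraries.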
